A study of Mus musculus with 2 samples.

Results

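A set of 8 genes was followed through single cells of the mouse femur: the complement genes Serping1, C3 and C4b, the chemerin gene Rarres2, the Ly6 genes Ly6a, Ly6c1 and Ly6e, and Cd34. These 8 members, of 24866 genes in the expression table, were selected on their measured levels in fibroblasts of these same wells, so their levels by cell group are given here as a description with no test. The cells came from the femurs of 2 littermate C57/B6 mice on postnatal day 6, genotype CTSK-cre+ mTMG, and both animals belong to 1 group with no control genotype. The cathepsin K promoter drives Cre, which turns the membrane reporter to GFP for good, so the sorted GFP-positive cells had that promoter active at some time and can differ in what they are now. Each animal filled its own plate (plate 47 for animal 1, plate 48 for animal 2), so animal and plate cannot be told apart.

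Complement is a cascade of blood and tissue proteins in which the C1 complex cleaves C4 and C2, which together cleave C3; Serping1 encodes the C1 inhibitor, a serpin that blocks the C1 proteases. Rarres2 encodes chemerin, a secreted attractant of cells that carry its receptor Cmklr1. The Ly6 genes encode small proteins held on the cell surface by a lipid anchor, of which Ly6a is the stem cell antigen Sca-1, and Cd34 encodes a surface sialomucin; Sca-1 and CD34 are used in mouse tissues to sort connective tissue fibroblasts and progenitors, and both are also known from endothelium.

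Promoter sequences are shown for Cd34 and Ly6c1, whose transcripts were high in the same cell groups, from 250 bases before to 50 bases after the RefSeq start site on build GRCm38.p6, 5′ to 3′ on the strand of the gene. The Cd34 window lies at chr1:194938571-194938870 on the plus strand and the Ly6c1 window at chr15:75048788-75049087 on the minus strand, and capitals mark a match to a motif searched.
Cd34: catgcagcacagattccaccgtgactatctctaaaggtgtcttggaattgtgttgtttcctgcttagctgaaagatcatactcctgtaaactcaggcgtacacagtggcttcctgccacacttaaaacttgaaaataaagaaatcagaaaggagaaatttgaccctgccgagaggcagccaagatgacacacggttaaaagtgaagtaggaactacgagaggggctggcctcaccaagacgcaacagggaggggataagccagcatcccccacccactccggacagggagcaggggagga
Ly6c1: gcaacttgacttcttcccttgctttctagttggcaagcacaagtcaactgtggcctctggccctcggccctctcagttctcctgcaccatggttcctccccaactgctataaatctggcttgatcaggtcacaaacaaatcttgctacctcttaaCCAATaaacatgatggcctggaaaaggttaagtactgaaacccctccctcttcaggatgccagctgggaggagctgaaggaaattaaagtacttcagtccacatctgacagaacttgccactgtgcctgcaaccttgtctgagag
The motifs reported, searched on both strands, are the IRF core GAAANNGAA, the C/EBP motif TTGCNNAA and the CCAAT box. They occurred in 8.56%, 10.8% and 37.4% of all 32851 promoter windows of this length. The Ly6c1 window held a CCAAT box that begins 95 bases before the start site, and a window of C3 held a C/EBP match, TTGCGAAA, that begins 45 bases before it. No other match to these 3 motifs was in the windows of Cd34, Ly6c1 and C3, including a second annotated start of Ly6c1. A match is a description of letters and not of a bound site.

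On mm10, the build of the counts per the labels, GENCODE gene models place Ly6e (74955051 to 74959905), Ly6a (74994877 to 74998031) and Ly6c1 (75044018 to 75048830) within 93.8 kb of chromosome 15. The other members are dispersed: Cd34 on chromosome 1 (194938819 to 194961279), Serping1 on chromosome 2 (84765387 to 84775444), Rarres2 on chromosome 6 (48569696 to 48572789), and C4b (34728380 to 34743882) and C3 (57203970 to 57228136) on chromosome 17. Reads of near-identical copies could be split or lost by the authors' counting. Of the distinct 75-base stretches of its annotated transcripts, C4b shared 22.7% with C4a, Ly6c1 shared 14.7% with Ly6c2 and 4.37% with Ly6a, and Ly6a shared 5.87% with Ly6c1 and 0.458% with Ly6i. The other 5 members shared none with another gene. The copies themselves were nearly silent, at no more than 14 counts of Ly6c2, 1 count of C4a and 91 counts of Ly6i in the fibroblast-like wells of an animal.

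Of 658 wells, 653 passed the filter of at least 500 detected genes and at most 20% mitochondrial counts, 318 in animal 1 and 335 in animal 2, with 9767 to 675621 counts each. The plates share 276 combinations of barcode and quadrant, which are positions on a plate and not shared cells. Clustering on marker genes alone, with the 8 members left out, gave 8 clusters, of which 2 carried fibroblast markers. The larger, led by Entpd2 and Dpt, held 134 wells (64 in animal 1, 70 in animal 2), and the smaller, led by Pi16 and Dpp4, held 30 wells (13 and 17). Together these 164 fibroblast-like wells were 24.2% of animal 1 (exact 95% binomial interval 19.6% to 29.3%) and 25.97% of animal 2 (21.4% to 31.0%), and all 14 fibroblast markers reached 5 counts in at least 5% of them in each animal. Other leading genes stood beside these names: Itga2b, Lpl and Kitl in the larger fibroblast-like cluster, the endothelial gene Tek in the smaller, Mmp9 and Alpl in the periosteal progenitor-like cluster, and the neutrophil genes S100a8 and S100a9 in the articular and synovial-like cluster. Wells outside the fibroblast-like clusters also had some of the 14 fibroblast markers at 5 counts in at least 5% of wells in each animal. These were Gsn, Col14a1, Mfap4, Pcolce2, Fbn1, Lum and Dcn. Pcolce2 went the other way, at 5 counts or more in 13.0% and 18.4% of fibroblast-like wells, against 21.6% and 24.6% of the others. Levels are CPM, counts summed over the wells of a group and scaled to the same total in each group, a well counts as detected at 5 counts or more, and ± is the SD over n = 2 animals.

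Of the complement members, Serping1, the C1 inhibitor, was abundant in fibroblast-like wells, while C4b was found in a handful of wells and C3 in none of them. Serping1 was at 941 CPM in animal 1 and 953 CPM in animal 2 in fibroblast-like wells, against 66.1 and 41.1 CPM in all other wells together, or 947 ± 8.62 against 53.6 ± 17.7 CPM. Fibroblast-like wells held 80.6% of all Serping1 counts of animal 1 and 88.9% of those of animal 2. It was detected in 49 of 77 fibroblast-like wells in animal 1 (63.6%, exact 95% interval 51.9% to 74.3%) and in 54 of 87 in animal 2 (62.1%, 51.0% to 72.3%), against 13.3% (9.26% to 18.2%) and 5.65% (3.12% to 9.29%) of the other wells. The animals lay close together in the fibroblast-like wells and did not overlap with the others.

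Outside the fibroblast-like wells, Serping1 was highest in pericyte and smooth muscle-like wells, at 354 CPM in animal 1 (7 of 13 wells) and 758 CPM in animal 2 (3 of 4 wells). Tendon and ligament-like wells had 132 and 91.1 CPM, and periosteal progenitor-like wells 108 and 130.5 CPM; these neighbours in the order overlapped. Articular and synovial-like wells had 46.05 and 7.78 CPM, osteoblast-like wells 1.43 and 48.8 CPM, and chondrocyte-like wells 7.92 and 2.09 CPM. In those last 3 groups a single well held most of the counts in at least 1 animal, 94.4% of them in chondrocyte-like wells of animal 1 and 96.7% in osteoblast-like wells of animal 2. The 2 fibroblast-like clusters were not apart: Serping1 had 595 and 1104 CPM in the Pi16 and Dpp4 cluster, and 1021 and 908 CPM in the Entpd2 and Dpt cluster.

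C4b, the gene of complement C4, had 5 counts or more in 2 of 77 fibroblast-like wells in animal 1 (2.60%, 0.316% to 9.07%) and in 4 of 87 in animal 2 (4.60%, 1.27% to 11.4%), with at most 85 and 107 counts in a well. Outside them it reached 5 counts in 1 well of each animal, or 0.415% and 0.403%. Its summed level was 19.8 and 24.2 CPM in fibroblast-like wells, against 0.327 and 0.987 CPM in the others, and the fullest well held 53.5% and 40.7% of the fibroblast-like counts. Few wells carry this level.

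C3, the central component of complement, was not detected in fibroblast-like wells: it had 0 counts in 77 wells of animal 1 and in 87 of animal 2, which allows a share of wells with C3 counts of up to 4.68% and 4.15% (exact 95% upper bound); a well that holds the transcript can still give 0 counts. If counts were independent, a count of 0 would allow up to 0.374 and 0.276 CPM there. A count was not read as 1 molecule, so the level allowed can be higher. C4b, with 5 counts or more in 2.60% of the same wells of animal 1, was at 19.8 CPM. The whole of C3 in the table was 68 counts in chondrocyte-like wells of animal 2, 67 of them in 1 well. C3 was thus not detectable in fibroblast-like wells at this depth.

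Rarres2, the gene of chemerin, was at 822 CPM in animal 1 and 771 CPM in animal 2 in fibroblast-like wells, against 90.5 and 45.4 CPM in all other wells, or 796 ± 36.1 against 67.9 ± 31.9 CPM. It was detected in 62 of 77 fibroblast-like wells in animal 1 (80.5%, 69.9% to 88.7%) and in 58 of 87 in animal 2 (66.7%, 55.7% to 76.4%), against 13.7% (9.62% to 18.7%) and 9.27% (5.97% to 13.6%) of the others. Fibroblast-like and other wells did not overlap, although the pericyte and smooth muscle-like wells, at 732 and 396 CPM, came close. Rarres2 was at 912 and 1179 CPM in the Pi16 and Dpp4 cluster, and at 801 and 648 CPM in the Entpd2 and Dpt cluster. The values of this larger cluster overlapped those of the pericyte and smooth muscle-like wells, of which 69.2% and 50% were detected. Next in order were tendon and ligament-like wells with 228 and 150.2 CPM, periosteal progenitor-like wells with 81.6 and 55.3 CPM, and articular and synovial-like wells with 43.1 and 28.6 CPM. Osteoblast-like wells had 47.2 and 0 CPM and chondrocyte-like wells 0.880 and 12.7 CPM, so that the spread of the osteoblast-like wells covered both neighbours. Chemerin and the C1 inhibitor thus shared their second group, the pericyte and smooth muscle-like wells, which number only 13 and 4.

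Ly6a, the gene of Sca-1, was high in the fibroblast-like wells and near 0 in most others. It was at 1564 CPM in animal 1 and 2052 CPM in animal 2 in fibroblast-like wells, against 15.05 and 32.2 CPM in all other wells, or 1808 ± 345 against 23.6 ± 12.2 CPM. Fibroblast-like wells held 96.8% of the Ly6a counts of animal 1 and 95.7% of those of animal 2. It was detected in 35 of 77 fibroblast-like wells in animal 1 (45.5%, 34.1% to 57.2%) and in 53 of 87 in animal 2 (60.9%, 49.9% to 71.2%), so that it was abundant in some of these wells and missing in others.

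The split followed the 2 clusters in part. Ly6a was at 3419 and 4505 CPM in the Pi16 and Dpp4 cluster, where 12 of 13 wells and 17 of 17 wells were positive. It was at 1138 and 1315 CPM in the Entpd2 and Dpt cluster, where 23 of 64 wells (35.9%, 24.3% to 48.9%) and 36 of 70 wells (51.4%, 39.2% to 63.6%) were positive. The clusters were made on marker genes without the members, and the values of the animals did not overlap between them. Endothelial markers, of which the smaller cluster carried Tek, summed to 67.2 and 23.1 CPM there and to 11.6 and 13.2 CPM in the larger, with 7 and 8 of 9 of them at 0 in the smaller cluster. Over all fibroblast-like wells the 9 endothelial markers summed to 22.04 and 15.5 CPM, against 4.36 and 2.16 CPM in the other wells. Tek was at 12.5 and 5.98 CPM in fibroblast-like wells, against 0 and 0 CPM in the others, and Cdh5 at 7.10 and 3.31 CPM, against 0.0727 and 0 CPM, while Pecam1, Cldn5 and Tie1 were at 0 counts in the fibroblast-like wells of both animals. The smaller cluster was also deeper, with medians of 120086 and 140426 counts against 84563 and 112457 in the larger. The part of depth and of the endothelial genes in the difference between the clusters was not tested.

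Ly6c1, a close relative of Ly6a known as a surface marker of monocytes and endothelium, had the same order. It was at 861 and 995 CPM in fibroblast-like wells, against 8.72 and 19.5 CPM in the others, or 928 ± 95.2 against 14.1 ± 7.60 CPM. The Pi16 and Dpp4 cluster had 1877 and 2432 CPM with 11 of 13 and 16 of 17 wells detected, and the Entpd2 and Dpt cluster 627 and 563 CPM with 20 of 64 and 28 of 70 wells detected. Markers of macrophages and leukocytes summed to 15.1 and 4.79 CPM in the fibroblast-like wells, against 9.78 and 6.02 CPM in the others, and no gene of that list reached 5 counts in 5% of the wells of either set.

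Cd34 was at 659 and 794 CPM in fibroblast-like wells, against 8.40 and 8.43 CPM in the others, or 726 ± 95.5 against 8.42 ± 0.0264 CPM. It was detected in 52 of 77 wells (67.5%, 55.9% to 77.8%) and 65 of 87 wells (74.7%, 64.3% to 83.4%), against 3.32% and 2.02% of the others. Its share was above that of Ly6a in both animals. The Pi16 and Dpp4 cluster again stood above, with 1105 and 1245 CPM, against 556 and 658 CPM in the Entpd2 and Dpt cluster.

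Outside the fibroblast-like wells these 3 surface genes had their highest mean over the animals in tendon and ligament-like wells, which was not the order in each animal. In tendon and ligament-like wells Ly6a had 14.9 and 223 CPM, Ly6c1 8.68 and 112.9 CPM, and Cd34 44.6 and 24.9 CPM. In osteoblast-like wells Ly6a had 118 and 2.40 CPM, Ly6c1 37.7 and 0.8005 CPM, and Cd34 5.25 and 0 CPM, with 247 of the 248 counts of Ly6a and all 79 of Ly6c1 of animal 1 in 1 well. In animal 1 Ly6a and Ly6c1 were thus higher in osteoblast-like than in tendon and ligament-like wells, and Ly6c1 was also higher in articular and synovial-like wells (19.0 CPM). In pericyte and smooth muscle-like wells, where Serping1 and Rarres2 were high, they had at most 1.87, 0.934 and 0.934 CPM. Chondrocyte-like wells, in which these genes were low, gave these shares at 1 count or more after each well was thinned to 20000 counts: 2.86% and 0% for Ly6a, 1.43% and 1.59% for Ly6c1 and 1.43% and 3.17% for Cd34, against 48.7% and 63.2%, 42.1% and 49.4%, and 72.4% and 75.9% of fibroblast-like wells. Median depths were 109438 and 136926 counts in chondrocyte-like wells and 92808 and 119126 in fibroblast-like wells. At equal depth the shares were thus higher in fibroblast-like than in chondrocyte-like wells. After the same thinning, tendon and ligament-like wells lay between them, at 6.82% and 19.4% for Ly6a and 4.55% and 19.4% for Ly6c1. The members were selected on their levels in fibroblasts of these wells, so this is a description and not a test.

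Ly6e, a Ly6 gene known to be broadly expressed and induced by interferon, was the least confined member. It was at 305 and 290.5 CPM in fibroblast-like wells, against 102.4 and 84.9 CPM in the others, or 298 ± 10.1 against 93.6 ± 12.4 CPM. It was detected in 54.5% (42.8% to 65.9%) and 51.7% (40.8% to 62.6%) of fibroblast-like wells, against 21.99% (16.9% to 27.8%) and 22.2% (17.2% to 27.9%) of the others. Periosteal progenitor-like wells had 128.5 and 199.6 CPM, with 57.1% (34.0% to 78.2%) of the wells of animal 2 detected, which overlaps the fibroblast-like share. Chondrocyte-like wells had 63.6 and 83.5 CPM, with 19.7% and 30.2% of wells detected. Of the 3 Ly6 members, which lie together on chromosome 15, Ly6a and Ly6c1 were near 0 in most groups in which Ly6e was present.

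**Figure D1:**
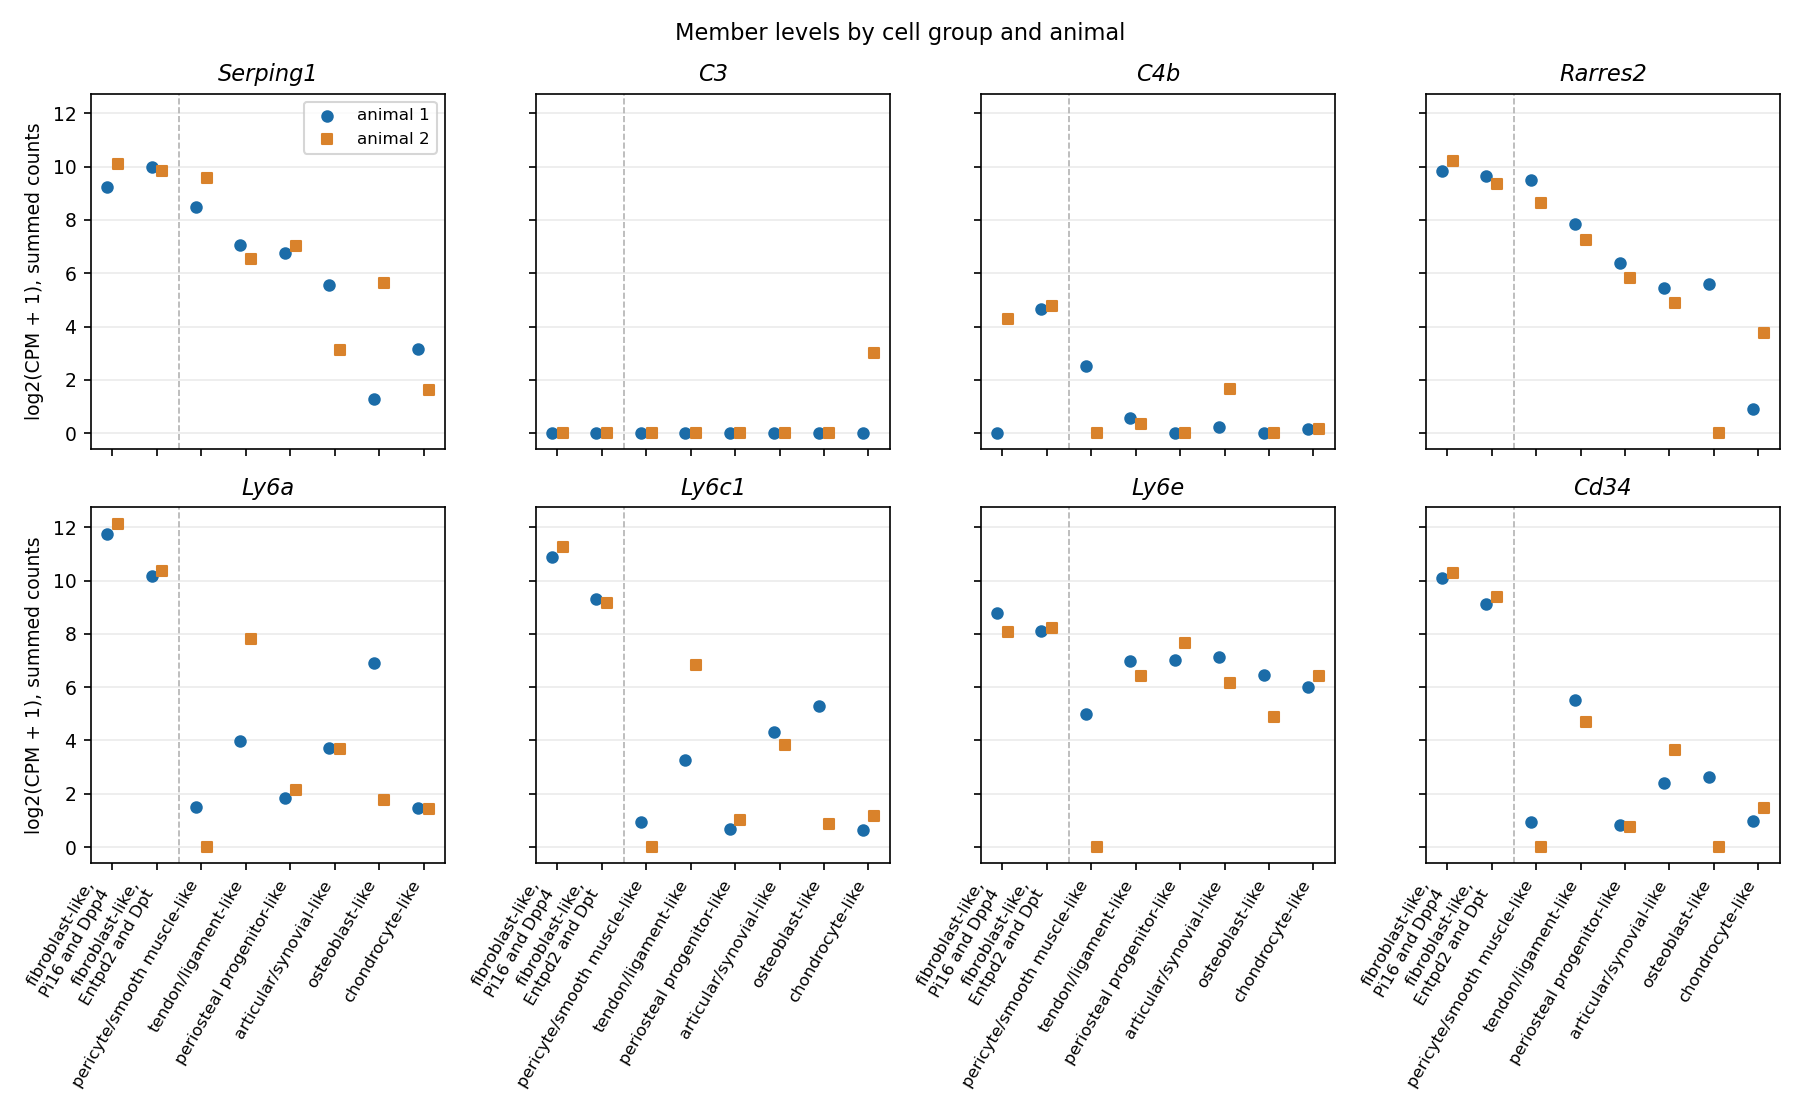
Summed level of each member, as log2(CPM + 1), in the 2 fibroblast-like clusters (left of the dashed line) and the other cell groups, with 1 point for each animal (n = 2). Ly6a, Ly6c1 and Cd34 are high left of the line and low right of it, Serping1 and Rarres2 are also high in pericyte and smooth muscle-like wells (13 and 4 wells), Ly6e is spread over the groups, and C3 is at 0 in all but 1 point.

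Several members were often detected in the same fibroblast-like well. The members were selected on their levels in fibroblasts of these data, so the contrast with other wells is a description and not a test. Of the 6 members seen in at least 20 wells, at least 3 were detected in 54 of 77 fibroblast-like wells in animal 1 (70.1%, 58.6% to 80.0%) and in 65 of 87 in animal 2 (74.7%, 64.3% to 83.4%), against 5 of 241 (2.07%, 0.677% to 4.77%) and 4 of 248 (1.61%, 0.441% to 4.08%) of the other wells. All 6 were detected in 14 and 17 fibroblast-like wells, and in 0 of the other wells of either animal. At the other end, 5 and 4 fibroblast-like wells had none of the 6. The shares expected if the members were detected independently of each other were not computed.

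**Figure D2:**
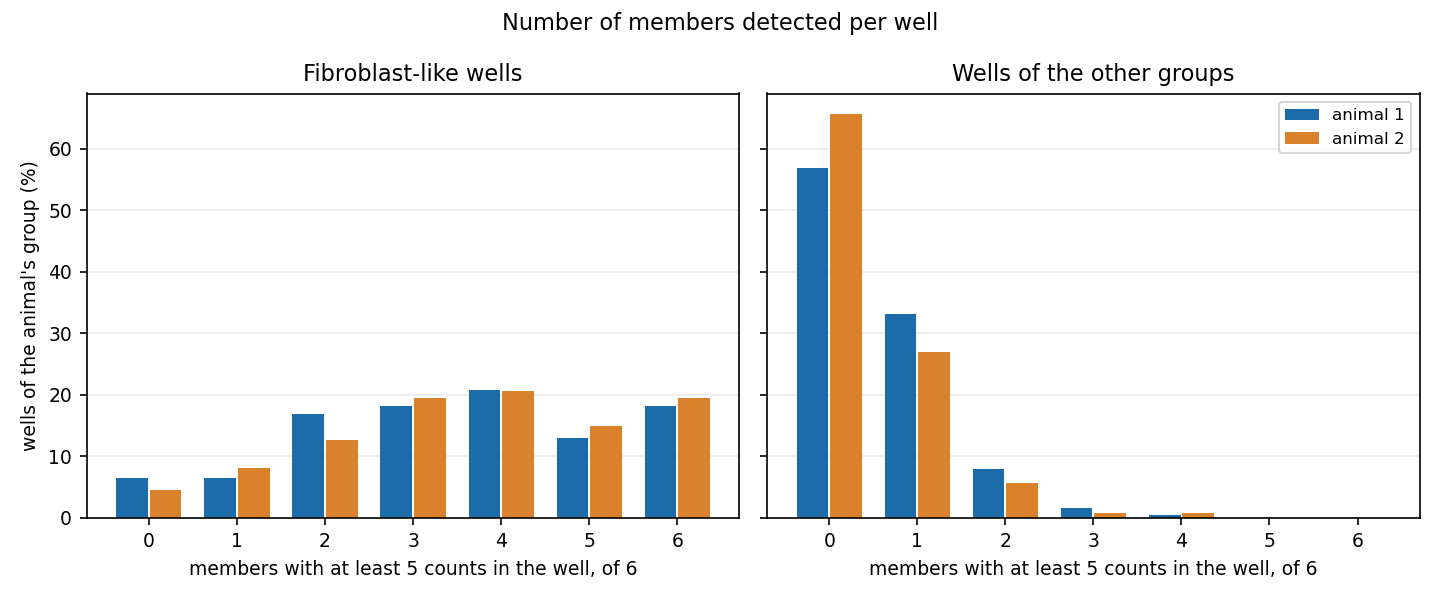
Share of wells (percent, vertical axis) by the number of members detected at 5 counts or more, of the 6 members other than C3 and C4b, in fibroblast-like wells (left) and wells of the other groups (right), with bars for each animal. Most fibroblast-like wells have 2 to 6 members, and most other wells have 0 or 1. The members were selected on their levels in fibroblasts of these data, so this contrast is a description.

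Since Ly6a divided the fibroblast-like wells, the other members were compared between Ly6a-positive wells (5 counts or more: 35 in animal 1, 53 in animal 2) and Ly6a-silent wells (0 counts: 33 and 24), with the 9 and 10 wells of 1 to 4 counts left out. Median depths were 109579 and 131701 counts in the positive wells and 78566 and 109608 in the silent wells, so the positive wells were deeper in each animal. The summed fibroblast markers were 19785 and 18942 CPM in the positive wells, against 17193 and 13547 CPM in the silent wells. Both sets carried fibroblast markers, but single markers differed between them in both directions. Cd248 was detected in 60% and 58.5% of positive wells, against 12.1% and 12.5% of silent wells. Fbn1 was at 1574 and 1156 CPM in positive wells, against 471 and 285 CPM in silent wells. Mfap4 went the other way, at 214 and 97.2 CPM in positive wells, against 789 and 445 CPM in silent wells. Lum was at 3001 and 3100 CPM, against 3115 and 2812 CPM. Markers of other cell types moved with the split: the 7 articular and synovial markers summed to 651 and 657 CPM in positive wells, against 47.1 and 259 CPM in silent wells, with 3 and 4 of them, against 1 and 2, at 5 counts in at least 5% of wells. Tendon and ligament markers summed to 441 and 380 CPM in positive wells, against 650 and 694 CPM in silent wells, chondrocyte markers to 208 and 182 CPM, against 321 and 323 CPM, and marrow stroma and adipocyte markers to 621 and 408 CPM, against 913 and 763 CPM. Pericyte and smooth muscle markers summed to 242 and 342 CPM, against 373 and 365 CPM, and Schwann markers to 58.8 and 56.1 CPM, against 101.1 and 68.6 CPM. The part of these cell types in the differences between positive and silent wells was not tested. Ly6c1 was the only member whose detection intervals were apart between the sets in both animals. The share of all genes with intervals apart was not computed, so this is a description of the members alone.

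Ly6c1 was detected in 27 of 35 (77.1%, 59.9% to 89.6%) and 40 of 53 (75.5%, 61.7% to 86.2%) Ly6a-positive wells, against 4 of 33 (12.1%, 3.40% to 28.2%) and 4 of 24 (16.7%, 4.74% to 37.4%) Ly6a-silent wells. Its level was 1670 and 1475 CPM in positive wells, against 53.7 and 90.99 CPM in silent wells, a log2 fold change of 4.63 ± 0.92 (SE of the edgeR quasi-likelihood fit, 2 animals, higher in 2 of 2). The unadjusted p was 0.00104 and the Benjamini-Hochberg adjusted p over all 13505 genes was 0.327 in edgeR, so the difference did not pass the threshold of 0.05. With DESeq2 the adjusted p was 0.000497, and over the 10 alternatives with a test it ranged up to 0.952. The gate rests on counts of the same wells, and Ly6a and Ly6c1 share some sequence. Within the larger cluster alone, Ly6c1 was detected in 69.6% and 66.7% of Ly6a-positive wells, against 12.5% and 16.7% of Ly6a-silent wells. With every well thinned to 20000 counts, at 1 count or more, the shares were 75.7% and 70.9% of positive wells, against 10.3% and 12.5% of silent wells.

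Wells with 1 of the 2 genes also occurred. In 8 and 13 fibroblast-like wells Ly6a was detected without Ly6c1, with 26 to 203 and 48 to 422 counts of Ly6a beside at most 2 and 1 counts of Ly6c1. In 4 and 4 wells Ly6c1 was detected without Ly6a, with 19 to 64 and 49 to 89 counts of Ly6c1 beside 0 of Ly6a. Both were found in 27 and 40 wells and neither in 38 and 30. Across fibroblast-like wells the Pearson correlation of log2(CPM + 1) was 0.81 in the 77 wells of animal 1 and 0.63 in the 87 wells of animal 2, a description of wells that share a plate and differ in depth. It was higher than for any other pair of the 6 members, whose correlations ran lower in both animals, up to 0.42 between Ly6a and Ly6e in animal 1 and 0.46 between Ly6a and Cd34 in animal 2.

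**Figure D3:**
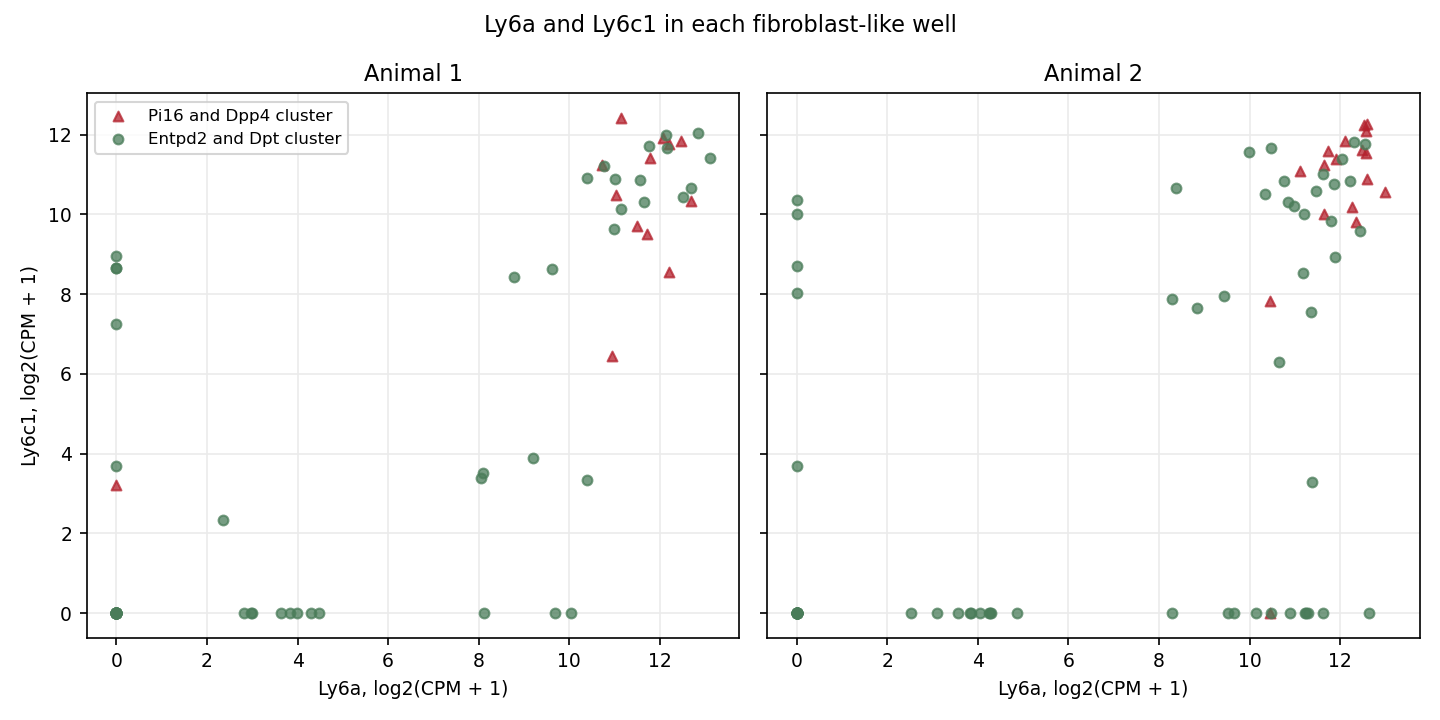
Ly6a (horizontal) and Ly6c1 (vertical) in each fibroblast-like well, as log2(CPM + 1), for animal 1 (77 wells, left) and animal 2 (87 wells, right), with triangles for the Pi16 and Dpp4 cluster and circles for the Entpd2 and Dpt cluster. Nearly all triangles lie at high values of both genes, and the circles spread from 0 of both genes to the same high values.

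Ly6e was detected in 77.1% (59.9% to 89.6%) and 62.3% (47.9% to 75.2%) of Ly6a-positive wells, against 33.3% (18.0% to 51.8%) and 37.5% (18.8% to 59.4%) of Ly6a-silent wells. Its level was 440 and 338 CPM in positive wells, against 135 and 204 CPM in silent wells (log2 fold change 1.25 ± 0.44, unadjusted p = 0.0226, adjusted p = 0.65, edgeR, higher in 2 of 2 animals). The intervals of the shares were apart in animal 1 and overlapped in animal 2. Cd34 was detected in 77.1% (59.9% to 89.6%) and 90.6% (79.3% to 96.9%) of positive wells, against 60.6% (42.1% to 77.1%) and 50% (29.1% to 70.9%) of silent wells. Its level was 845 and 934 CPM in positive wells, against 485.5 and 469 CPM in silent wells (log2 fold change 0.95 ± 0.46, adjusted p = 0.726, edgeR). Neither gene passed the threshold.

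Serping1 and Rarres2 were found in both sets. Serping1 was at 982 and 991 CPM in Ly6a-positive wells, against 1108 and 862 CPM in Ly6a-silent wells, lower in animal 1 and higher in animal 2 (log2 fold change 0.13 ± 0.62, adjusted p = 1, edgeR). Rarres2 was at 847 and 877 CPM in positive wells, against 850 and 625 CPM in silent wells (log2 fold change 0.29 ± 0.85, adjusted p = 1, edgeR). These differences were smaller than their standard errors, which does not show that the sets were alike. C4b had 5 counts or more in 2 of 35 and 3 of 53 positive wells, against 0 of 33 and 1 of 24 silent wells, too few to compare, and C3 was at 0.

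Of the 6 members tested, 0 passed the adjusted threshold in edgeR, where 0.0148% of all genes did. At an unadjusted p under 0.05 they were Ly6c1 and Ly6e, where 7.03% of all genes were called, and in DESeq2 Ly6c1 alone passed the adjusted threshold, where 2.37% of genes did. Both genes called in edgeR were lower in Ly6a-positive wells. Mgp, the gene of matrix Gla protein, an inhibitor of calcification, was at 1675 and 1712 CPM in positive wells, against 6971 and 5187 CPM in silent wells (log2 fold change -1.79 ± 0.16, adjusted p = 0.034). It was detected in most wells of both sets, 77.1% and 88.7% of positive against 87.9% and 91.7% of silent wells, so the difference lay in the amount. Fam180a was at 2.97 and 2.10 CPM in positive wells, against 64.5 and 82.2 CPM in silent wells (log2 fold change -4.80 ± 0.31, adjusted p = 0.0051), with 5 counts or more in 0 and 0 positive wells and in 2 and 4 silent wells. Without the 31 deepest wells Mgp had an adjusted p of 0.0642, and within the larger cluster alone, chosen after seeing the data, 0.333. Fam180a had 0.0798 when wells were gated after thinning. With the 4 fibroblast-like libraries alone both had 0.952, the highest of their 10 alternatives, and with DESeq2 they had 4.75e-28 (Fam180a) and 3.17e-26 (Mgp), the lowest.

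**Figure D4:**
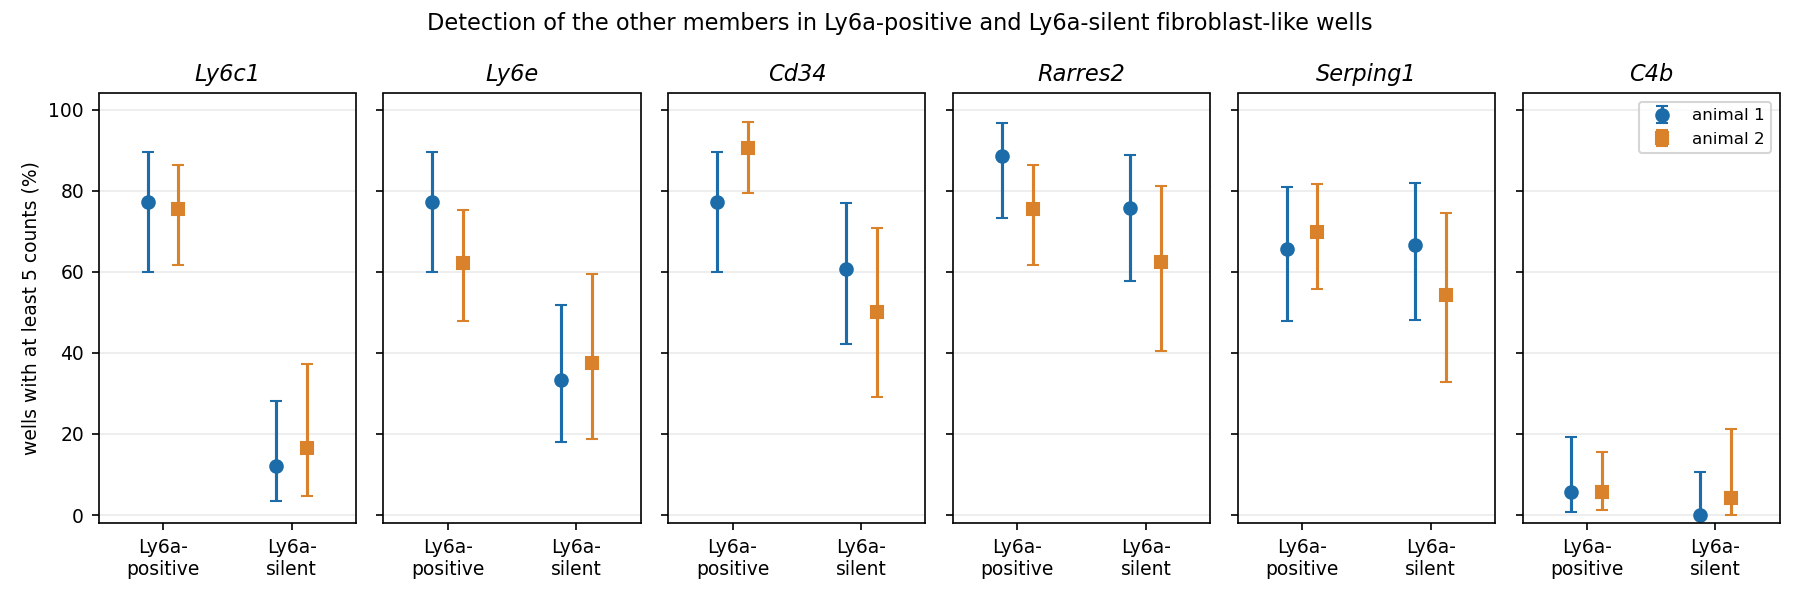
Percent of fibroblast-like wells with at least 5 counts of each other member (vertical axis) in Ly6a-positive and Ly6a-silent wells, for animal 1 (35 and 33 wells) and animal 2 (53 and 24 wells), with exact 95% binomial intervals that cover counting error only. The intervals are apart in both animals for Ly6c1, in 1 animal for Ly6e and for Cd34, and overlap for Rarres2, Serping1 and C4b. The share of all genes with intervals apart was not computed.

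Most Ly6a-positive wells were fibroblast-like, and how many depended on the clustering: of 98 in all, 68 were named fibroblast-like and 30 were not at Leiden resolution 2. At the resolution used here 88 were fibroblast-like and 10 were not (4 in animal 1 and 6 in animal 2): 7 tendon and ligament-like, 2 articular and synovial-like and 1 osteoblast-like. They held 8 to 348 counts of Ly6a. Some genes of the fibroblast list were present in these wells: 9 of the 10 had at least 3 of the 14 markers at 5 counts. The median was 4, against 7 in Ly6a-positive fibroblast-like wells. It was 2 in the Ly6a-silent wells of all groups that were not fibroblast-like, chondrocyte-like wells included. A median for Ly6a-silent wells of the named groups alone was not computed. The list includes broad genes such as Dcn, detected in 77.6% and 78.6% of all other wells. Mfap5 reached 5 counts in 1 of the 10. It was detected in 85.7% and 83.9% of fibroblast-like wells, against 7.05% and 4.84% of all other wells. Ly6c1 was above 0 in 6 of the 10. The part of wells that hold more than 1 cell was not tested.

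Around the members, the pathway genes of this cascade were mostly scarce. The fit of fibroblast-like wells against the 4 other groups with at least 10 wells in each animal ranks genes between groups that were made from the same wells, so passing its threshold is a description and not an independent test; 2.01% of 13959 genes passed. Of 29 other complement components listed, 24 were in the table, 11 reached 5 counts in no well, and 0 of the 10 in the fit passed, where 5 had an unadjusted p under 0.05 in edgeR and 2 of 7 passed in DESeq2. The C1 protease genes were among those seen: C1s1 was at 135 and 57.4 CPM in fibroblast-like wells, against 9.82 and 4.42 CPM in the others, and C1ra at 47.7 and 12.7 CPM, against 3.42 and 3.85 CPM. C2 was at 51.0 and 34.7 CPM, against 4.84 and 3.41 CPM. C1r and C1s are the proteases that the C1 inhibitor blocks and C2 is cleaved by C1s; all 3 genes were higher in the fibroblast-like wells of both animals and did not pass (adjusted p = 0.106, 0.326 and 0.335 for C1s1, C1ra and C2, edgeR). Within the fibroblast-like wells C1s1 was at 78.6 and 32.0 CPM in Ly6a-positive wells, against 208.9 and 89.6 CPM in Ly6a-silent wells (adjusted p = 0.937, edgeR). The median log2 fold change was 3.64 over the 10 components, against 0.22 over all genes in the fit. This median includes sparse genes, such as Colec10 (8.63, detected in 3 wells in all) and C1rl (7.27, in 6 wells). Colec12, detected in 218 wells, was at 143 and 156 CPM in fibroblast-like wells, against 146 and 144 CPM in the others (log2 fold change 0.06).

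Of 20 regulators and receptors of complement, 10 were in the fit and 2 passed. Cd55, the decay-accelerating factor, which dissolves C3 convertases on the cell surface, was at 152 and 304 CPM in fibroblast-like wells, against 7.02 and 13.0 CPM in the others (log2 fold change 4.27, adjusted p = 0.0178). Clu, clusterin, a secreted inhibitor of the membrane attack complex, was at 49.1 and 35.8 CPM, against 183 and 247 CPM (log2 fold change -2.44, adjusted p = 0.0255). At an unadjusted p under 0.05 there were 4 genes in edgeR, and the same 4 of 7 passed in DESeq2. The additional ones were Cd59a, another inhibitor of the membrane attack complex, at 0.249 and 2.21 CPM in fibroblast-like wells, against 5.63 and 15.3 CPM in the others (adjusted p = 0.242, edgeR), and Vtn, vitronectin, at 25.1 and 31.6 CPM, against 9.23 and 0 CPM (adjusted p = 0.112, edgeR). Without the 31 deepest wells Cd55 had an adjusted p of 0.0873, the highest of its 7 alternatives, and the lowest was 7.53e-10 with DESeq2. Within the fibroblast-like wells Cd55 was at 220 and 451 CPM in Ly6a-positive wells, against 48.8 and 21.7 CPM in Ly6a-silent wells (adjusted p = 0.648).

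In the other lists, 0 of 8 Ly6 and uPAR family genes in the fit, 0 of 2 chemerin receptors and 0 of 2 genes of the CD34 family and its ligand passed in edgeR. At an unadjusted p under 0.05 these were 5, 2 and 1 genes, and 1, 1 and 0 passed in DESeq2. Cmklr1, the chemerin receptor, was at 10.5 and 9.76 CPM in fibroblast-like wells, against 6.11 and 9.61 CPM in the others (log2 fold change 2.54, unadjusted p = 0.0323, adjusted p = 0.305, edgeR). Gpr1, another chemerin receptor, was at 2.99 and 49.3 CPM in fibroblast-like wells, against 1.89 and 0.0318 CPM in the others (log2 fold change 7.52, adjusted p = 0.306, edgeR), and was the receptor that passed in DESeq2. Of 9 serpins, the intracellular protease inhibitor Serpinb6a passed (980 and 1175 CPM in fibroblast-like wells, against 278 and 279 CPM in the others, log2 fold change 1.79, adjusted p = 0.0028). Of 11 interferon-inducible genes, Ifitm3 passed (1734 and 1726 CPM, against 380 and 346 CPM, log2 fold change 2.85, adjusted p = 0.0177). In DESeq2 3 of 9 serpins and 2 of 9 interferon-inducible genes passed. In the Ly6a split 0 of 51 genes of these 7 lists passed in edgeR, 8 had an unadjusted p under 0.05, and 2 of 43 passed in DESeq2.

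Over the 12 libraries of the 6 clusters with at least 10 wells in each animal, the genes whose log2(CPM + 1) followed each member most closely were compared by Pearson correlation, as a description of libraries that share plates and clusters. Ly6a and Ly6c1 were each other's closest gene among 13958 (r = 0.99), and for Ly6c1 the next were Cyb5a (0.97) and Cd34 (0.96). For Ly6a the next were Tmeff2 (0.98) and Tmod2 (0.97), and for Cd34 the closest were Filip1l (0.99), Celf2 (0.97) and Cyb5a (0.97). Serping1 lay closest to Ebf1 (0.98), Rnase4 (0.97) and Vim (0.96), and Rarres2 to Tppp3 (0.96), Tmem43 (0.95) and Heg1 (0.95). Ly6e lay closest to Gm5526 (0.95), S100a16 (0.94) and Phlda3 (0.94), with Ly6a only at rank 302, and the sparse C4b to Gata6 (0.97), Fgf1 (0.96) and Qprt (0.96).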

How the data were processed

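The values are whole-number counts per gene and well, as deposited by the authors; the labels name build mm10 and, per the submitters' processing notes, CASAVA, while neither the aligner nor the gene counter is given in the sources used here, nor is the handling of duplicates. A detected gene had a median of 18 counts and 23.1% of nonzero values were 1, so a count was not read as 1 molecule, and intervals and limits cover counting error only. Cells, per the labels' protocols, were sorted into wells, amplified after template switching and sequenced from Nextera XT libraries. Well names carry the plate, which gave the animal.

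The members and lists were chosen with earlier results of these data known. Wells were clustered with leidenalg 0.10.2 (igraph 0.11.9, Python 3.11.15, resolution 1, 15 neighbours, 20 components, log counts per 10000 centred per animal) on 115 marker genes, of 147 listed and 139 in the table. Clusters took a list's name with at least 3 raised markers and most of the 10 leading markers, a rule set after seeing the data. No doublet caller was run; leaving out the 31 deepest wells (5%) was an alternative. Counts were summed per animal and group, for groups with at least 10 wells in each animal, and fitted with edgeR 4.0.16 (R 4.3.3, quasi-likelihood, TMM, filterByExpr, animal as a block); DESeq2 1.42.0 was an alternative. The test was also run on counts simulated from its own fitted spread, which cannot show whether that spread suits the Ly6a split. Thinning drew 20000 counts per well, which left out 3 wells. P-values measure only the spread that is left between 2 animals, each on its own plate, after the block. That spread was estimated over all groups together. It came from 10 libraries (4 residual degrees of freedom) for fibroblast-like against other groups and from 12 (5) for the Ly6a split. The libraries of the other cell groups thus entered the error of the Ly6a split. The text names all 8 members, genes of 7 pathway lists (105 genes, 92 in the table) and of the Ly6a split with adjusted p under 0.05, the 3 genes most like each member, and, chosen after their values were seen, C1s1, C1ra, C2, C1rl, Colec10, Colec12, Cd59a, Vtn, Cmklr1, Gpr1 and single marker genes. RefSeq promoters were matched for 3 of the 8 members.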

Additional observations from a re-analysis of the deposited data

How the results depend on the processing

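Of 271 values recomputed under another setting, 225 stayed the same. For a tested gene this means the same direction and side of the threshold. For a count of calls it means a similar number, and for other values a shift within the SE or SD of the main value. A further 34 shifted beyond that in the same direction or were counts of calls that differed more. In addition 7 lost the threshold, 1 gained it and 4 changed direction. With DESeq2, 824 genes were called between fibroblast-like and other groups, against 281 in edgeR, and 283 in the Ly6a split, against 2, among them Ly6c1 (log2 fold change 4.57). The split called 10 genes at Leiden resolution 2, 0 with the 4 fibroblast-like libraries only, and 1 each with the gate on thinned wells, without the deepest wells and within the larger cluster. The 0 of the 4 libraries stands beside 342 genes at an unadjusted p under 0.05. Leaving out an animal leaves no residual degrees of freedom, hence no count of calls. In the split, the log2 fold change of Serping1 was -0.19 at resolution 2 and -0.15 to 0.30 without 1 animal, that of C4b -0.68 to 10.56 (a fitted value, since 1 silent set was at 0), and that of Ly6e 0.83 to 1.73. Without the replicate block, Ly6c1 was at 4.51 (adjusted p = 0.299).

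At resolution 2, 106 wells in place of 164 were named fibroblast-like, and 48 went to an unnamed cluster, 15 of them Ly6a-positive. The log2 ratio of CPM + 1 of fibroblast-like over other wells was then 4.51 for Ly6a, 4.39 for Ly6c1, 4.06 for Cd34 and 4.38 for C4b, against 6.28, 6.04, 6.26 and 3.82. Without the fullest well it was 7.05 for Ly6a, 6.78 for Cd34 and 3.51 for C4b, and as a mean over wells 5.79 for Cd34, 3.25 for C4b and 1.43 for Ly6e. The difference in the share of wells detected was 48.4 points for Serping1, 55.2 for Rarres2 and 27.8 for Ly6e at 1 count, and 62.7, 69.2, 36.5 and (C4b) 5.26 points at resolution 2. Between Ly6a-positive and Ly6a-silent wells it was 19.3 points for Rarres2 after thinning and 11.6 without the deepest wells, and -0.952 to 15.6 for Serping1 without 1 animal. The cause of these shifts was not tested.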
